A study of Mus musculus with 4 samples.

Results

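Fc receptors are the proteins through which cells of the immune system sense antibodies, and 10 genes of antibody sensing and antibody transport were followed here in leukocytes of the mouse dura, the tough outer layer of the meninges. The members were taken by gene name from the table of all 55401 genes: *Fcgr1*, *Fcgr3*, *Fcgr4*, *Fcgr2b*, *Fcer1g*, *Fcgrt*, *Pigr*, *Fcer2a*, *Fcmr*, and *Trim21*. RNA came from CD45+ cells (CD45 is the common leukocyte protein) sorted from the dura of WT C57BL/6J male mice that had received an AAV9 vector into the cisterna magna, a CSF-filled space, at 4 wk of age. AAV-mVEGF-C carried mouse VEGF-C, the growth factor of lymphatic vessels. AAV-CTRL encoded soluble VEGFR-3 ectodomains, a part that leaves VEGF-C unbound, fused to an Ig tail. An effect of this Ig-tailed control protein on antibody receptors cannot be told apart from an absence of VEGF-C. Each of the 2 libraries per group was made from a pool of 10 to 12 mice, and p-values therefore measure the spread between these pools. Before sorting, the cells were incubated with an antibody to CD16/32, the proteins of *Fcgr3* and *Fcgr2b*.

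The activating receptors for IgG (*Fcgr1*, *Fcgr3*, and *Fcgr4*) bind the tail of IgG and signal through a shared gamma chain, the product of *Fcer1g*, whereas the receptor encoded by *Fcgr2b* restrains that signal in the same cells. Other members move antibodies instead of signaling: the neonatal Fc receptor (*Fcgrt*) returns IgG from endosomes to the cell surface or across cell layers, and *Pigr* carries polymeric IgA and IgM across epithelia. On B cells, *Fcer2a* (CD23) binds IgE and *Fcmr* binds IgM, and in the cytosol of most cells TRIM21 binds antibody that has entered on a virus. In border tissues such as the dura, macrophages are known to carry several of these receptors.

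*Fcgr2b* and *Fcgr3* share 2 near-identical coding exons, and the more alike of these is shown first because it bears on how the reads of both genes could be assigned. On GRCm38, *Fcgr2b* lies on chromosome 1 (chr1:170958617-170976547, minus strand) and *Fcgr3* beside it (chr1:171051174-171064935, minus strand). The coding exon of the second extracellular Ig-like domain is chr1:170966446-170966700 in *Fcgr2b* and chr1:171053939-171054193 in *Fcgr3*. Both are written 5′ to 3′ on the coding strand, and capitals mark the bases that differ between the 2 genes.

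Fcgr2b: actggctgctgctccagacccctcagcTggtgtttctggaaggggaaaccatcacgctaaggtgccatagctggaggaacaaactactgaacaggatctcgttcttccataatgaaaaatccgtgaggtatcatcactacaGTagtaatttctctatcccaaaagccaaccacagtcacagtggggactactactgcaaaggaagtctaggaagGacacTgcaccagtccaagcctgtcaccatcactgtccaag

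Fcgr3: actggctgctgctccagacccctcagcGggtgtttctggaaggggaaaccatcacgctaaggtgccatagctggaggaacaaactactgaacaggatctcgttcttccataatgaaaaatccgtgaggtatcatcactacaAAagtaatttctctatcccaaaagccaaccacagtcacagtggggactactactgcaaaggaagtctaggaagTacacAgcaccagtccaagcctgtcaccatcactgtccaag

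Of these 255 bases, 250 were identical (98.0%), with an identical run of 113 bases. The exon of the first Ig-like domain (chr1:170967980-170968234 in *Fcgr2b* and chr1:171057691-171057945 in *Fcgr3*) matched at 241 of 255 bases (94.5%). Over their annotated transcripts the likeness was limited. Of all distinct windows of 100 bases, 44 of 5843 in *Fcgr2b* (0.753%) and 44 of 1733 in *Fcgr3* (2.54%) occurred unchanged in the other gene. Both genes had read estimates with decimals in all 4 libraries, while their sums were whole numbers (within 0.011 reads), namely 16256 and 11518 reads for the controls and 12227 and 11450 reads for the VEGF-C pools. The other 8 members had whole reads in every library. *Fcgr2b* received 51.1% and 52.4% of the shared sum in the AAV-CTRL libraries and 55.6% and 51.6% in the AAV-mVEGF-C libraries. The values of these 2 genes are therefore uncertain one by one, which does not touch their sum.

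Levels of different genes were compared in TPM, a gene's transcripts out of 1000000 in a library after correction for gene length. *Fcer1g* was the most abundant member, at 221 and 198 TPM in the AAV-CTRL libraries and 159 and 190 TPM in the AAV-mVEGF-C libraries. *Fcgr3* (76.2 to 106 TPM) and *Fcgr2b* (85.7 ± 5.92 TPM, mean ± SD of 4 libraries) followed, then *Fcgrt* (32.7 ± 9.14 TPM). A lower tier held *Fcgr1* (16.4 ± 6.20 TPM), *Fcmr* (15.8 ± 8.58 TPM), *Fcgr4* (13.7 ± 2.06 TPM), *Trim21* (8.17 ± 2.11 TPM), and *Fcer2a* (3.53 ± 1.46 TPM). *Pigr* was close to absent, at 0 to 0.287 TPM. Neighbors in this order whose ranges overlapped were *Fcgr3* with *Fcgr2b*, *Fcgrt* with *Fcgr1*, *Fcgr1* with *Fcmr*, and *Fcmr* with *Fcgr4*. *Fcgr3* stood above *Fcgr2b* in 3 of 4 libraries, and *Fcgrt* stood above *Fcgr1* in all 4.

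**Figure D1:**
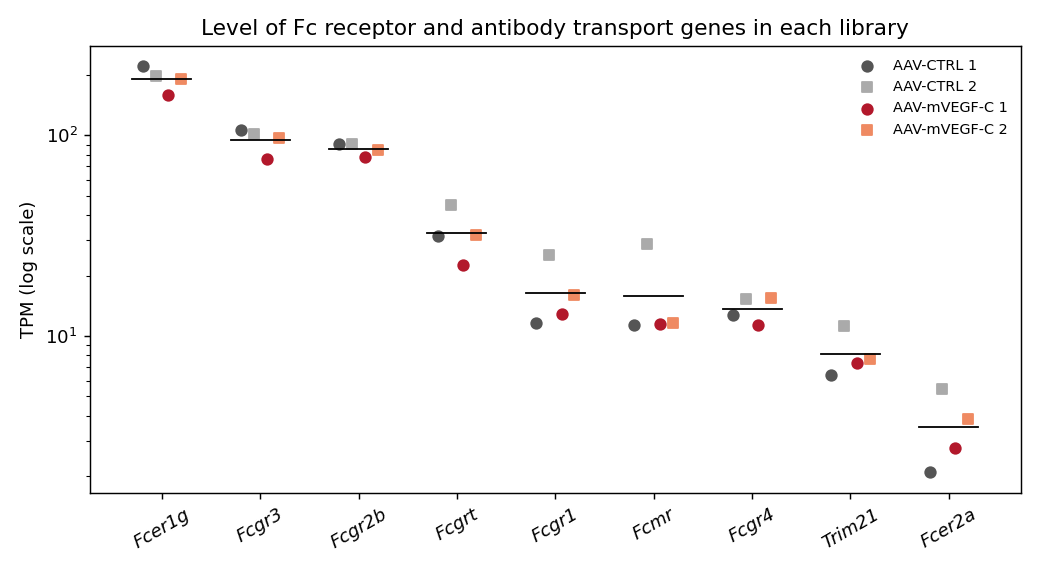
TPM of 9 members on a log axis, with 1 point per library and a bar at the mean of the 4 libraries (*Pigr*, at 0 in 1 library, is left out). *Fcer1g* lies highest in every library, between 159 and 221 TPM, and AAV-CTRL 2 lies above the other libraries in *Fcmr*, at 28.7 TPM against 11.4 to 11.6 TPM.

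VEGF-C was then compared with the control on CPM, reads per 1000000 reads of a library after scaling by the TMM method, using the quasi-likelihood test of edgeR over 19806 genes. All 10 members entered the test. None of them passed at an adjusted p of 0.05, where 0% of all tested genes passed, and 0 members had an unadjusted p under 0.05, which 2.64% of tested genes had. DESeq2 also called 0 members at the adjusted threshold, where it called 77 of 40674 genes. At an unadjusted p under 0.05 it had 854 genes, among them 1 member, *Pigr*. With edgeR and no expression filter, 1327 of 40674 genes had an unadjusted p under 0.05, among them 2 members, *Fcmr* and *Pigr*. The estimates were lower with VEGF-C for 8 members and higher for 2, with a median log2 fold change of -0.085 against 0.0034 over all tested genes, of which 49.6% had lower estimates. This tally rested on 1 library, since without AAV-mVEGF-C 1 only 3 members were lower (*Fcgrt*, *Fcmr*, and *Trim21*) and 7 were higher, with a median of 0.0512. In CPM, both AAV-mVEGF-C libraries lay below both controls for 1 member (*Trim21*), against 15.2% of tested genes, and the groups overlapped for 8. *Pigr* lay above both controls, as did 16.8% of tested genes, but it entered the test only through its AAV-mVEGF-C reads, so nothing is read from its place. With 2 pools against 2, an exact two-sided permutation test of a single gene cannot go below p = 0.333. In bulk RNA, fewer cells of a type and less RNA per cell cannot be told apart.

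Among the activating receptors, *Fcgr3* (low-affinity receptor for IgG) had 178 and 159 CPM in the controls and 139 and 175 CPM with VEGF-C. The control values lay inside or just above the range of the VEGF-C libraries, and the log2 fold change was -0.10 (SE 0.18, 95% interval -0.54 to 0.33). *Fcgr4*, the mouse receptor for IgG2 subclasses (chr1:171018920-171029761, plus strand), had 19.3 and 21.7 CPM in the controls and 18.6 and 25.2 CPM with VEGF-C. The VEGF-C libraries held both the lowest and the highest value, and the log2 fold change was 0.09 (SE 0.22, 95% interval -0.45 to 0.64). *Fcgr1*, the high-affinity receptor for monomeric IgG (chr3:96282909-96293969, minus strand), had 42.0 and 55.4 CPM in the controls against 33.4 and 48.8 CPM. The groups overlapped, and the log2 fold change was -0.25 (SE 0.25, 95% interval -0.85 to 0.36).

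*Fcgr2b* was the steadiest member. It had 186 and 176 CPM in the controls and 174 and 186 CPM with VEGF-C, a spread of 174 to 186 CPM across all libraries. The log2 fold change was -0.0039 (SE 0.15), and its 95% interval of -0.37 to 0.36 is the narrowest that these pools gave for any member. Summed with *Fcgr3*, so that the division of reads has no part, the pair had 364 and 335 CPM in the controls and 313 and 361 CPM with VEGF-C. The gamma chain gene *Fcer1g* (chr1:171229572-171234365, minus strand) had 150 and 129 CPM in the controls and 123 and 144 CPM with VEGF-C. Its groups overlapped, and the log2 fold change was -0.07 (SE 0.17, 95% interval -0.48 to 0.35). On the TPM scale, *Fcgr3*, *Fcgr2b*, and *Fcer1g* lay lower in both AAV-mVEGF-C libraries than in both controls, as did 28.5% of all tested genes, and *Pigr* lay higher, as did 8.92%, with the same limit of the filter. On that scale the median of all tested genes was itself lower with VEGF-C, by a log2 difference of -0.0782 at a pseudocount of 1.

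The balance of activating to inhibitory receptors does not depend on how libraries are scaled against each other. It does depend on the uncertain division of reads between *Fcgr3* and *Fcgr2b*. The ratio of these genes alone was 1.17 and 1.12 in the controls and 0.979 and 1.14 with VEGF-C. The summed TPM of *Fcgr1*, *Fcgr3*, and *Fcgr4* over that of *Fcgr2b* was 1.44 and 1.57 in the controls and 1.29 and 1.52 with VEGF-C. The groups overlapped, at 1.51 ± 0.0908 against 1.40 ± 0.162 (mean ± SD, n = 2). The log2 ratio of the group means was -0.103, and with each library left out in turn it ranged from -0.226 (without AAV-mVEGF-C 2) to 0.01 (without AAV-mVEGF-C 1). *Fcgr4* over *Fcgr2b*, a ratio less affected by shared reads, was 0.141 and 0.169 in the controls and 0.145 and 0.183 with VEGF-C. The gamma chain exceeded the sum of the 3 activating receptors in every library, by ratios of 1.70 and 1.39 in the controls and 1.59 and 1.48 with VEGF-C. These ratios concern transcripts, in a population that also holds cells using the gamma chain with other receptors.

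For transport, *Fcgrt* (chr7:45092990-45103851, minus strand) had 71.0 and 93.5 CPM in the controls and 52.1 and 76.4 CPM with VEGF-C. The lower control lay below the higher VEGF-C library, and the log2 fold change was -0.36 (SE 0.24, 95% interval -0.95 to 0.23, unadjusted p = 0.191 and adjusted p = 0.999 by edgeR). Leaving out AAV-CTRL 1 or AAV-mVEGF-C 2 gave -0.557 and -0.65, and leaving out AAV-CTRL 2 or AAV-mVEGF-C 1 gave -0.135 and -0.0972, so the direction was kept and the size was not. *B2m*, the light chain that the neonatal Fc receptor shares with MHC class I, had 871 and 912 CPM in the controls and 832 and 980 CPM with VEGF-C (log2 fold change 0.02, SE 0.17). *Pigr* (chr1:130826684-130852249, plus strand) was represented by 0 and 8 control reads and by 64 and 14 reads with VEGF-C, out of 32520709 to 46409700 reads. A count of 0 allows up to 3 reads. Both AAV-mVEGF-C libraries were higher, with a log2 fold change of 3.17 and a wide error (SE 1.76, 95% interval -1.12 to 7.46, unadjusted p = 0.121 by edgeR). *Pigr* passed the expression filter only through the AAV-mVEGF-C libraries, and 1 library of the 4 held most of its reads. The log2 fold change moved to 1.93 without AAV-mVEGF-C 1 and to 2.13 without AAV-CTRL 1. Of 6 epithelial markers, 4 had enough reads to be tested and 2 were at 0 in at least 1 library. Their summed level, most of it *Cdh1*, was 17.2 to 22.6 CPM in the controls and 15.4 to 18.8 CPM with VEGF-C. The single markers were split. In AAV-mVEGF-C 1, *Krt5* (10 reads), *Krt14* (11 reads), and *Epcam* (3.3 CPM) were at their highest. *Cdh1* (9.91 CPM), *Krt18* (1.41 CPM), and *Krt8* (0.282 CPM) were at their lowest there. Their part in the *Pigr* reads was not tested.

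Among the members above 1 CPM in every library, the B cell receptors had the largest standard errors. *Fcmr* (chr1:130865669-130880791, plus strand) had 21.7 and 55.7 CPM in the controls and 24.8 and 26.8 CPM with VEGF-C. One control library lay above all others and the second below them, and the log2 fold change was -0.58 (SE 0.42, 95% interval -1.60 to 0.44). Without AAV-CTRL 1 it was -1.13, and without AAV-CTRL 2 it was 0.26, so 1 control library decided the direction. *Fcer2a* (chr8:3681737-3694175, minus strand) had 6.44 and 13.9 CPM in the controls and 7.86 and 11.8 CPM with VEGF-C, and both VEGF-C values lay between the controls. Its log2 fold change was -0.04 (SE 0.43, 95% interval -1.09 to 0.998). The summed level of the 9 B cell markers was 351 and 772 CPM in the controls and 365 and 383 CPM with VEGF-C, none was at 0 in any library, and 8 of 9 had lower estimates with VEGF-C (0 at the adjusted threshold, 2 at an unadjusted p under 0.05, *Ebf1* and *Ms4a1*). *Cr2*, the complement receptor of B cells, was the exception, with 139 and 275 reads in the controls and 298 and 198 reads with VEGF-C (log2 fold change 0.32 after scaling, SE 0.49). The part of B cell number in *Fcmr* and *Fcer2a* was not tested.

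Relative to the mean of the 4 libraries, *Fcmr* stood at 1.73 in AAV-CTRL 2, and the B cell markers stood at 1.65. In the other libraries *Fcmr* stood at 0.672 to 0.832, beside 0.750 to 0.819 for the markers. *Fcer2a* was also highest in AAV-CTRL 2, at 1.39, but it parted from the markers in AAV-mVEGF-C 2, at 1.18 against 0.819. *Fcgr1* and *Fcgrt* varied with the summed level of the 12 macrophage markers in the same descriptive sense. Some single markers departed from the sum: *F13a1* was highest in AAV-CTRL 1, *Cd68* was highest in AAV-mVEGF-C 2, and *Lyve1* and *Ms4a7* were lowest in AAV-CTRL 1. In AAV-mVEGF-C 1, the lowest library for both genes and the sum, *Fcgr1* stood at 0.743, *Fcgrt* at 0.712, and the summed markers at 0.790. In AAV-CTRL 2, the highest, they stood at 1.23, 1.28, and 1.22. The macrophage markers summed to 1980 and 2600 CPM in the controls and 1680 and 2250 CPM with VEGF-C, with 12 of 12 estimates lower, 0 of them passing the test, and none at 0. Their part in the values of *Fcgr1* and *Fcgrt* was not tested.

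**Figure D2:**
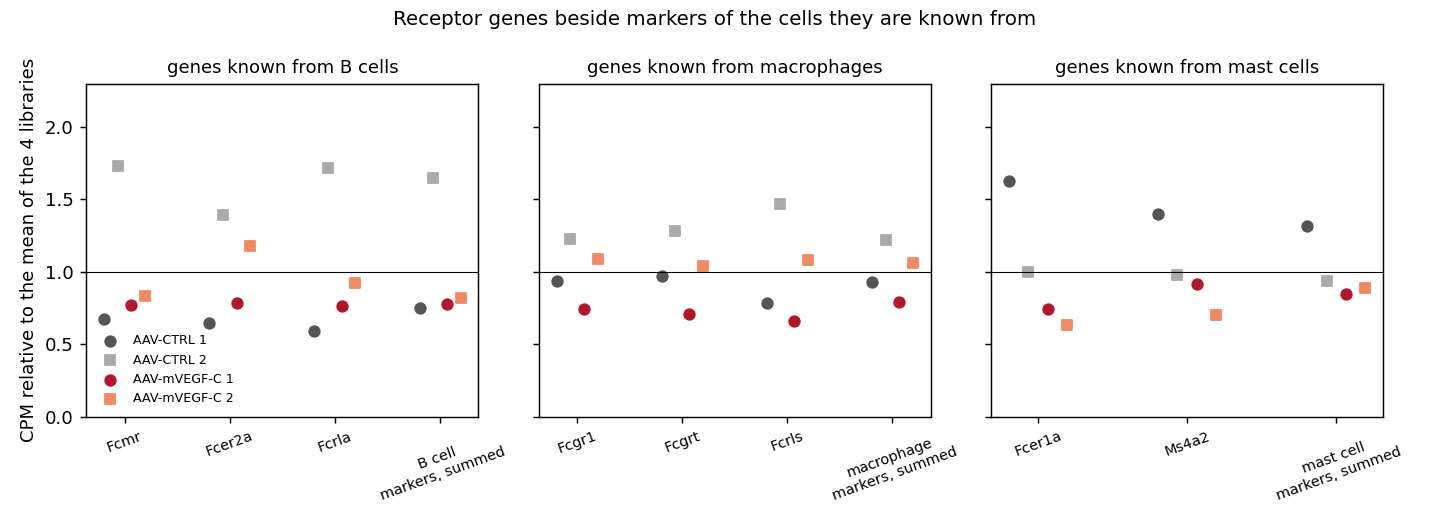
CPM of receptor genes and of summed marker lists in each library, divided by the mean of the 4 libraries (line at 1), for genes known from B cells, macrophages, and mast cells (*Fcrla* and *Fcrls* are Fc receptor-like genes). *Fcmr* and the B cell markers stand apart in AAV-CTRL 2 (1.73 and 1.65), *Fcer2a* less so (1.39), *Fcgr1* and *Fcgrt* lie close to the macrophage markers, and *Fcer1a* and the mast cell markers are highest in AAV-CTRL 1 (1.63 and 1.32).

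*Trim21* (chr7:102557921-102565486, minus strand), the cytosolic antibody receptor, had 23.0 and 22.5 CPM in the controls and 17.3 and 18.4 CPM with VEGF-C. The groups were separate, with a log2 fold change of -0.35 (SE 0.18, 95% interval -0.80 to 0.09), and this was the smallest p among the members (unadjusted p = 0.1003, adjusted p = 0.999 by edgeR). In TPM the separation was lost. *Trim21* had 6.39 and 11.2 TPM in the controls and 7.34 and 7.72 TPM with VEGF-C, and AAV-CTRL 1, the highest library in CPM, was the lowest in TPM. CPM and TPM differ by the transcript length behind each value, which was recovered from the ratio of reads to TPM. For *Trim21* the implied length was 2779 bases in AAV-CTRL 1 and 1677, 1713, and 1721 bases in the other libraries. The longest annotated *Trim21* transcript has 2793 bases and the shortest 634 bases. *Fcgr1* was also longest in AAV-CTRL 1, at 2803 bases against 1834, 1896, and 2199 bases (its longest annotated transcript has 2589 bases). Its other libraries were spread more widely than those of *Trim21*, so its split was less clean. *Fcgr4*, which has 1 annotated transcript, stayed at 1178 to 1204 bases. Over 9369 genes, the implied length in AAV-CTRL 1 was at least 1.5 times that in each other library for 162 genes (1.73%) and shorter by the same factor for 195 (2.08%). In each of the other libraries 0 to 33 genes were that much longer. Whether these are different isoforms or a different assignment of reads was not tested.

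**Figure D3:**
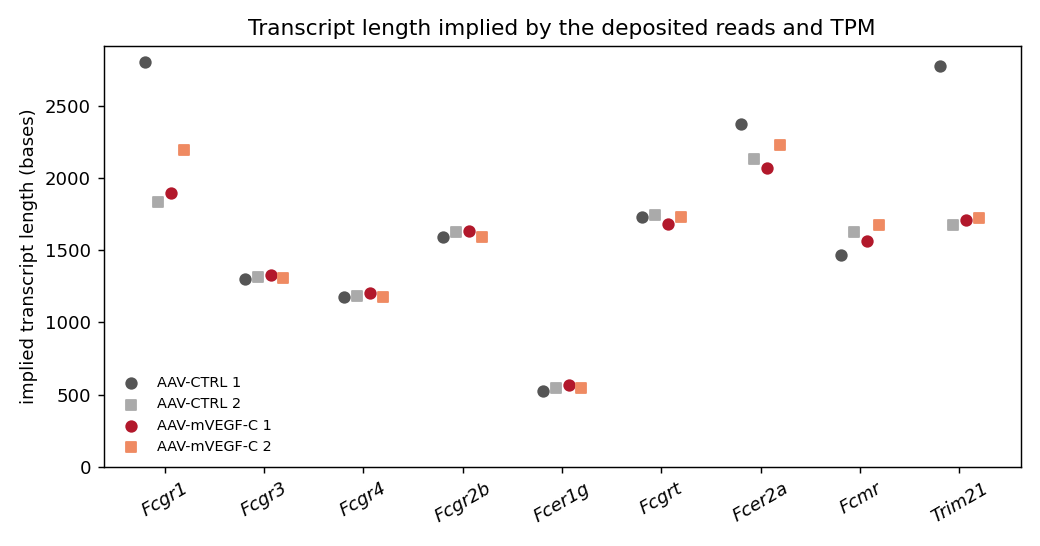
Transcript length in bases implied by the deposited reads and TPM for 9 members, with 1 point per library. In AAV-CTRL 1, *Trim21* and *Fcgr1* stand at 2779 and 2803 bases, above the other libraries, while *Fcgr4* stays at 1178 to 1204 bases in all 4.

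Interferon is known to induce *Fcgr1*, *Fcgr4*, and *Trim21*, and the myeloid factor PU.1 is known to drive many Fc receptor genes. Promoters (from 250 bases before to 50 after the RefSeq start, GRCm38.p6) were searched on both strands for GAGGAA, the core bound by PU.1, and for GAAANNGAA, a repeat of the kind found in interferon response elements, which can overlap it. All 10 members had a promoter entry. The first motif occurred in 5 members (*Fcgr1*, *Fcgr3*, *Fcgr4*, *Fcmr*, and *Trim21*) and in 28.3% of 32851 promoters, and the second in 2 members (*Fcgr4* and *Trim21*) and in 8.56%. The stretches of both genes that hold the repeat are shown because these members alone held it, and because their receptors bind IgG outside and inside the cell. They are written on the coding strand with motif letters in capitals (the PU.1 core of *Fcgr4* reads from the opposite strand). The *Fcgr4* stretch is chr1:171018826-171018925 (plus strand) and the *Trim21* stretch chr7:102565448-102565477 (minus strand).

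Fcgr4: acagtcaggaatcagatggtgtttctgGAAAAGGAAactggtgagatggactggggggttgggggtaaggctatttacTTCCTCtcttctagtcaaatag

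Trim21: tctgaGAGGAAACTGAAAGTGAAatttgga

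In *Trim21* the repeat occurred at overlapping positions and also overlapped the PU.1 core. These matches are letters in a window and no measure of binding. Of 17 interferon-stimulated genes, 6 had higher and 11 lower estimates with VEGF-C (median log2 fold change -0.06), and 0 passed at the adjusted threshold or at an unadjusted p under 0.05. The direction of this median rested on single libraries, since it was -0.272 without AAV-CTRL 1, 0.278 without AAV-CTRL 2, 0.0914 without AAV-mVEGF-C 1, and -0.341 without AAV-mVEGF-C 2.

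Among the kinases, phosphatases, and adaptors that carry the receptors' signals, no gene passed the test. Of 22 genes of the activating branch, 12 had higher and 10 lower estimates (median log2 fold change 0.01), and of 8 genes of the inhibitory branch 6 were higher and 2 lower (median 0.02). Both medians were near 0 and turned sign, that of the activating branch to -0.0431 without AAV-CTRL 2 and -0.135 in TPM, and that of the inhibitory branch to -0.0842 without AAV-mVEGF-C 2 and -0.0137 in TPM (pseudocount 1). In both lists 0 genes passed at the adjusted threshold and 0 at an unadjusted p under 0.05. *Syk*, the kinase recruited by the gamma chain, had 503 and 549 CPM in the controls and 505 and 526 CPM with VEGF-C (log2 fold change -0.03, SE 0.16). *Lyn*, a Src-family kinase upstream of it, had 347 and 340 CPM in the controls and 318 and 336 CPM with VEGF-C (log2 fold change -0.07, SE 0.15). *Inpp5d*, the phosphatase SHIP1 that acts downstream of *Fcgr2b*, had 436 and 423 CPM in the controls and 427 and 448 CPM with VEGF-C (log2 fold change 0.03, SE 0.15). *Ptpn6*, encoding the phosphatase SHP-1, had 340 and 330 CPM against 273 and 308 CPM, lower in both AAV-mVEGF-C libraries (log2 fold change -0.21, SE 0.16, unadjusted p = 0.242 by edgeR). Among 11 tested partners in vesicle transport, 3 had higher and 8 lower estimates (median -0.08, but -0.0258 without AAV-CTRL 1 and -0.149 in TPM), and among 10 partners of *Trim21*, 1 was higher and 9 were lower (median -0.14, but -0.0661 without AAV-CTRL 1 and -0.262 in TPM at a pseudocount of 1), again with 0 calls at either threshold.

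By median log2 fold change, the antibody genes, whose products these receptors bind, lay further apart between the groups than the members (-0.085). Single genes did not all follow. *Ighm* and *Ighd* had fold changes smaller in size than that of *Fcmr* (-0.58), and the member *Pigr*, on few reads, stood at 3.17. Of 8 tested heavy constant genes and *Jchain*, 7 had higher estimates with VEGF-C (median log2 fold change 1.70), 0 passed at the adjusted threshold, and 5 had an unadjusted p under 0.05. Their summed level was 1830 and 3220 CPM in the controls and 6750 and 7100 CPM with VEGF-C. *Igha*, the heavy chain of IgA and cargo of *Pigr*, had 437 and 473 CPM in the controls and 1150 and 1220 CPM with VEGF-C (log2 fold change 1.38, SE 0.16, unadjusted p = 0.000134, adjusted p = 0.331 by edgeR). *Jchain*, which joins polymeric IgA and IgM, had a log2 fold change of 1.35 (SE 0.16). *Ighg2b*, whose protein is bound by the receptor of *Fcgr4*, had 129 and 44.0 CPM in the controls and 1070 and 667 CPM with VEGF-C (log2 fold change 3.33, SE 0.54, adjusted p = 0.604). *Ighg2c* and *Ighg1* also lay higher in both AAV-mVEGF-C libraries, with log2 fold changes of 2.54 (SE 0.62) and 4.91 (SE 1.87). *Ighg1* had 77.5 and 0.233 CPM in the controls, so its fold rests on uneven controls. *Ighg3* was more uneven, with 1 and 9429 control reads and 17033 and 21615 reads with VEGF-C (log2 fold change 2.03, SE 2.04). The groups overlapped for *Ighm* (log2 fold change 0.51, SE 0.42) and *Ighd* (-0.27, SE 0.30), the heavy chains of IgM and IgD. *Ighe*, encoding IgE, received 0 and 4 control reads and 3 and 285 reads with VEGF-C and was not tested. The 7 plasma cell markers summed to 244 and 305 CPM in the controls and 322 and 318 CPM with VEGF-C, none at 0. Of the 7, 6 had higher estimates and lay higher in both AAV-mVEGF-C libraries (median log2 fold change 0.64), with 0 at the adjusted threshold and 2 at an unadjusted p under 0.05 (*Prdm1* and *Sdc1*). Their part in the antibody genes was not tested, and the difference between receptor and antibody genes was not tested either.

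**Figure D4:**
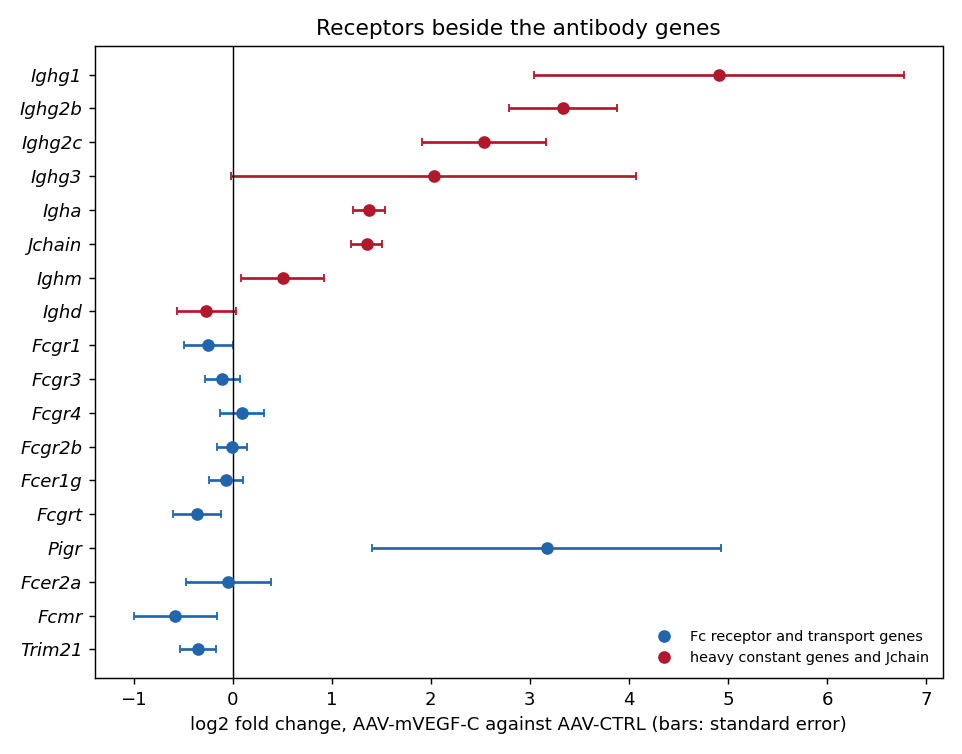
Log2 fold change of AAV-mVEGF-C against AAV-CTRL from edgeR, with its standard error, for the 10 members (blue) and 8 antibody genes (red). Of the members, 9 lie between -0.58 and 0.09 and *Pigr*, on few reads, at 3.17, while 7 of 8 antibody genes lie above 0, from 0.51 to 4.91.

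Receptors for antibodies outside the 10 members included those of mast cells. *Fcer1a*, the IgE-binding chain of the high-affinity IgE receptor that also uses the gamma chain, had 16.1 and 9.83 CPM in the controls and 7.35 and 6.22 CPM with VEGF-C. Both AAV-mVEGF-C libraries were lower, with a log2 fold change of -0.93 (SE 0.32, unadjusted p = 0.0272, adjusted p = 0.999 by edgeR). *Ms4a2*, its beta chain, stood at 1.40 and 0.976 times its mean CPM over the 4 libraries in the controls and at 0.915 and 0.705 with VEGF-C, again lower in both (log2 fold change -0.56, SE 0.28). The 7 mast cell markers summed to 2580 and 1830 CPM in the controls and 1650 and 1740 CPM with VEGF-C, with 6 of 7 estimates lower, 4 of them at an unadjusted p under 0.05 (*Cpa3*, *Mcpt4*, *Tpsb2*, and *Cma1*), 0 at the adjusted threshold, and none at 0. Basophils are known to carry the same receptor, and their 3 markers summed to 16.5 and 15.2 CPM in the controls and 8.73 and 10.4 CPM with VEGF-C. Of these, 3 of 3 estimates were lower, 1 of them at an unadjusted p under 0.05 (*Cd200r3*, log2 fold change -0.93, SE 0.29), 0 at the adjusted threshold, and none at 0. *Cd200r3* held most of the sum in every library. The groups overlapped for *Mcpt8* (0.537 and 1.37 CPM in the controls, 0.486 and 1.2 CPM with VEGF-C). They also overlapped for *Prss34* (1.68 and 3.81 CPM in the controls, 1.89 and 2.74 CPM with VEGF-C). The part of either cell type in *Fcer1a* and *Ms4a2* was not tested. Of the 8 tested genes of this list, 2 had higher and 6 lower estimates (median -0.35, but -0.661 without AAV-CTRL 1, 0.164 without AAV-CTRL 2, and -0.196 with limma-voom), and *Fcamr*, a receptor for IgA and IgM, had 0 to 3 reads per library and was not tested.

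Last, genes whose profile over the 4 libraries lay nearest to that of 3 members were sought among 9336 genes with a mean of at least 10 CPM, by Euclidean distance of centered log2(CPM + 1) values. For *Fcer1g* they were *Snrpd2* (distance 0.0165), *Map2k2*, and *Tmem251*. For *Fcgr2b* they were *Pdcd6ip* (distance 0.00576), *Mvp*, and *Chd1*, and for *Trim21* they were *Pomgnt1* (distance 0.0284), *Dzip3*, and *Mmp14*. Such closeness was common, since 1627 genes lay within a distance of 0.2 of *Fcer1g*, 2162 of *Fcgr2b*, and 482 of *Trim21*.

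As for the libraries themselves, reads assigned to genes numbered 32520709 to 46409700, and 20990 to 37512 genes had a read. AAV-CTRL 1 had the most reads and the fewest detected genes. The leukocyte markers *Ptprc*, *Coro1a*, and *Laptm5* summed to 2550 to 2860 CPM in all 4 libraries, and the neutrophil markers to 26400 CPM in AAV-CTRL 1 against 12300 to 17700 CPM in the others. The 6 fibroblast markers, genes of cells outside the CD45+ gate, summed to 653 and 1040 CPM in the controls and 354 and 549 CPM with VEGF-C, with 6 of 6 estimates lower (4 at an unadjusted p under 0.05, 0 adjusted) and none at 0. The 4 erythroid markers summed to 56.0 and 81.9 CPM in the controls and 14.1 and 25.9 CPM with VEGF-C (median log2 fold change -1.80, 3 of 4 lower and at an unadjusted p under 0.05, 0 adjusted), and 1 of them was at 0 in at least 1 library. The 6 endothelial markers summed to 74.3 and 83.2 CPM in the controls and 67.7 and 63.3 CPM with VEGF-C, with 4 of 6 estimates lower (1 at an unadjusted p under 0.05, *Kdr*, 0 adjusted) and none at 0. *Fcgrt* is known from many cell types, endothelial cells among them, and the part of cells outside the gate in its values was not tested.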

How the data were processed

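RNA of sorted dural CD45+ cells was measured in 2 AAV-CTRL and 2 AAV-mVEGF-C libraries, grouped by the sample labels. The library kit (SMARTer, Takara) keeps strand and takes very small amounts of total RNA. The authors deposited estimated counts per gene without normalization, of which 8.18% were not whole. The authors also deposited TPM, which are scaled for transcript length. The submitters' processing notes name FastQC, Trimmomatic, DRAGEN, Picard, and mm10. The annotation and strand setting are not given in the sources used here. A gene overlapping a member on the opposite strand could share its reads if strand was ignored; the 2 such genes held 0 to 9 reads per library.

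Estimated counts were rounded and tested over all genes with the quasi-likelihood test of edgeR 4.0.16 (R 4.3.3), with TMM scaling, the default filterByExpr filter, which kept 19806 of 55401 genes, no covariate, and Benjamini-Hochberg adjustment at 0.05. The common dispersion was 0.173. Intervals are 95% intervals of the fit. The code was tested on simulated data. Depth was 32520709 to 46409700 reads per library, and the limit for a count of 0 covers counting error only.

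The members and gene lists were chosen with earlier results of these data known. Named were all members, genes of the pathway lists with an unadjusted p under 0.05 (at most 6 per list), fixed examples from these lists (2 of which are not reported here), the antibody genes, and the 3 nearest profiles of *Fcer1g*, *Fcgr2b*, and *Trim21*. *Fcrla* and *Fcrls* were plotted, and *Ighe* and *Fcamr* named, as members of these lists, and marker genes are named as examples of theirs. Coordinates and exon sequences were read from GENCODE M21 (GRCm38), which holds 54349 of the identifiers at the same version. Implied lengths were calibrated in each library on genes with a single transcript of at least 1000 bases and at least 100 reads, of which 74.3 to 80.1% came out within 10% of their annotated length.

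Replicate numbers come from the experiment numbers in the labels, which the column names contradict. Deviations of same-numbered libraries correlated at -0.134 across genes (-0.0353 on log2(CPM + 1)), so the numbers do not show pairing. Alternatives were DESeq2 1.42.0, limma-voom (limma 3.58.1), other scalings and filters, robust fitting, a replicate block, TPM with pseudocounts of 1 and 0.1, and each library left out. A crossed pairing and a summed *Fcgr2b* and *Fcgr3* feature were chosen after seeing the data.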

Additional observations from a re-analysis of the deposited data

How the results depend on the processing

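No member passed the adjusted threshold with DESeq2, limma-voom, other scalings or filters, robust fitting, TPM, or a replicate block. With 1 library left out, 1 group is a lone library without a measured spread, so only effect sizes are given. *Fcmr* moved to -1.13 without AAV-CTRL 1. *Pigr* had no usable fold without AAV-CTRL 2, when the 1 control left holds 0 *Pigr* reads. The median log2 fold change of members then ranged from -0.315 to 0.0512, that of *Fcmr* from -1.13 to 0.261, of *Fcgrt* from -0.65 to -0.0972, of *Fcer2a* from -0.511 to 0.621, of *Fcgr1* from -0.538 to 0.0133, of *Fcgr3* from -0.273 to 0.062, of *Fcgr4* from -0.134 to 0.308, of *Fcgr2b* from -0.0475 to 0.053, and of *Fcer1g* from -0.177 to 0.0495. Without AAV-CTRL 1, *Fcgr4* was at -0.000993. Signs of values near 0 also turned elsewhere: *Fcgr2b* with DESeq2-type size factors (0.000131) or at least 10 reads in every library (0.00534), *Fcer2a* with limma-voom (0.0583), and *Fcgr4* in TPM (-0.072 at a pseudocount of 1, -0.0775 at 0.1). The log2 ratio of activating to inhibitory receptors between groups was -0.103 (-0.226 to 0.01 with each library left out), and 0.0802 for *Fcgr4* over *Fcgr2b* alone. With the replicate block *Fcer2a* was at 0.0274 and with the crossed pairing at 0.0271, and no member's call changed under either. The causes of these changes were not tested.

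Over all genes, the replicate block called 11 of 19806 genes, the crossed pairing 54 of 19806, and the main edgeR test 0 of 19806. DESeq2 called 77 of 40674 genes, and edgeR with no expression filter 268 of 40674. Calls with 1 library left out are not counted, since a group of 1 library shows no spread. TPM with a pseudocount of 0.1 moved the median of all genes to -0.112. Few reads limited the values of *Pigr*, *Fcamr*, and *Ighe*, and the number of pools limited all values.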
